A study of Mus musculus with 2 samples.

Results

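Scavenger receptors and C-type lectins are the surface receptors with which macrophages bind modified lipoproteins, microbes and cell debris. The set described here holds 10 such genes, found by their symbol in the deposited table, where each of the 10 had 1 entry among 26037 genes. The scavenger receptors are Cd36, Scarb1, Msr1 and Marco, and the C-type lectins are Mrc1, Clec7a, Clec4n, Clec4d, Clec4e and Clec5a. They were measured by RNA sequencing in 2 libraries of cultured mouse cells, 1 labelled Control and 1 labelled MMP9_KO, so no difference between the groups has a replicate check. MMP9 is an extracellular protease. Osteoclasts, the multinucleated bone-resorbing cells that macrophages form under the cytokine RANKL, make it in large amounts.

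Both cultures came from the marrow of C57BL/6 mice aged 6 to 8 weeks. Per the labels, marrow cells were grown in 5 ng/ml of M-CSF and 10% serum, the cells that had not attached spent 3 days in 30 ng/ml of M-CSF, and attached macrophages of both groups were then exposed to RANKL for 3 days. The groups differ in the labels by genotype alone, control against MMP9 KO. The table's headings add the letters NCsh to the control and sh to the knockout, the labels do not explain them, and the name knockout follows the labels. The sources used here do not give the number of mice behind each culture.

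Scavenger receptors are grouped by structure and not by descent. Class A receptors such as Msr1 and Marco carry a collagen-like stalk and bind modified lipoproteins and bacteria, whereas class B receptors such as Cd36 and Scarb1 span the membrane at both ends and exchange lipids with lipoproteins. C-type lectins bind sugars or glycolipids of fungi and mycobacteria. Clec4n, Clec4d and Clec4e (known as Dectin-2, MCL and Mincle) signal through the adaptor Fcer1g, Clec5a (MDL-1) through Tyrobp and Hcst, and Clec7a (Dectin-1) through a motif of its own, all toward the kinase Syk. Fcer1g and Tyrobp are also the adaptors of the costimulatory signal in osteoclast formation.

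Of the 10 members, 6 had levels high enough to be compared, and 4 of these passed 2-fold toward the knockout. By the same rule 4.0% of all 11126 compared genes did so. The stretches before the start sites of the 4 members are shown here so that these genes can be compared at the level of sequence. Each is the 250 bases before the first transcribed base of the RefSeq gene in GRCm38.p6, on the gene's strand. Capitals mark matches, on either strand, to the letters of 5 short motifs (C/EBP, PU.1, AP-1, GAS and the TATA box), which are spelled out after the sequences, and no match overlapped another in those shown.
Cd36, minus strand, chr5:17835897-17836146: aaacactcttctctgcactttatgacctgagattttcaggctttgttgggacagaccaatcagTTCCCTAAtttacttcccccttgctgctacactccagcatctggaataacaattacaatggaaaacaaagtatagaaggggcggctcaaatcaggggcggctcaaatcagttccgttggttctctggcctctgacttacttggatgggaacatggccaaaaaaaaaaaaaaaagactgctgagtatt
Clec4d, plus strand, chr6:123261857-123262106: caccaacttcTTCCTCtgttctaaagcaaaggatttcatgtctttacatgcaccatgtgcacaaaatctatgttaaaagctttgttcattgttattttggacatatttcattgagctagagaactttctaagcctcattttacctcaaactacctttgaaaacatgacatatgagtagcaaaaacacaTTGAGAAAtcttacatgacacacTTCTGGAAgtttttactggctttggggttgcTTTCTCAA
Clec4e, minus strand, chr6:123289872-123290121: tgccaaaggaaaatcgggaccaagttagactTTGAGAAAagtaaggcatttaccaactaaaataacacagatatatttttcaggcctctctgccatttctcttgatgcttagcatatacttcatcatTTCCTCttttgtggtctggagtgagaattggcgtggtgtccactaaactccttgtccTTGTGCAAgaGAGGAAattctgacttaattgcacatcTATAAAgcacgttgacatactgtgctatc
Clec5a, minus strand, chr6:40585806-40586055: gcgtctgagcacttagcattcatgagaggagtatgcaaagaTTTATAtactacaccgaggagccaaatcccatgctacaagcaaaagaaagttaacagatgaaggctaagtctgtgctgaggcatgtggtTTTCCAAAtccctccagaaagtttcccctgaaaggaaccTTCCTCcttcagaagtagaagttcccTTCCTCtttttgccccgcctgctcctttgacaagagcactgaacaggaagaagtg

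The C/EBP letters, TTNNGNAA, were present in 4 of these 4 sequences and in 36.8% of 32851 RefSeq promoters of the same length. The PU.1 letters, GAGGAA, were present in 3 of 4, in Clec4d, Clec4e and Clec5a and not in Cd36, against 23.3% of all promoters. The TATAAA letters were present in Clec4e at 29 bases before the start (from -29 to -24) and in Clec5a much farther away and on the opposite strand, against 12.4% of all promoters. The AP-1 letters, TGANTCA, and the GAS letters, TTCNNNGAA, matched nowhere in these windows and were present in 6.75% and 7.02% of all promoters. RefSeq promoters were matched for 7 of the 10 members. Among the other 3 matched, Marco, Mrc1 and Clec7a, the PU.1 letters were present in each and the C/EBP letters in Marco and Mrc1 but not in Clec7a, so that 6 of the 7 held each of these motifs. Such matches describe letters in 1 window per gene, except for Clec7a, which had more than 1, and Cd36 in particular has further start sites upstream in the annotation.

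Levels below are normalised read counts, that is, reads scaled by 1 factor for each library and not divided by length. The control held 20678441 reads and the knockout 17741432. Folds are given with exact 95% intervals for counting error only. A gene was compared when its mean over both libraries was at least 1, and it was called higher or lower when log2 of the knockout value plus 1 over the control value plus 1 was at least 1 or at most -1.

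Cd36 had the highest fold of the compared members. This receptor takes up oxidised lipoproteins and long-chain fatty acids and takes part in macrophage fusion. It stood at 31.01 in the control (1248 reads) and at 184 in the knockout (7745 reads), 5.93-fold higher (5.59 to 6.30). Its log2 ratio of 2.53 ranked 98th from the top among 11126 compared genes. By level, Cd36 moved from rank 3816 of all genes in the control to rank 347 in the knockout. Cd36 lies on the minus strand of chromosome 5, from 17781690 to 17888801 in GRCm38.

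The other scavenger receptors did not reach 2-fold. Msr1, the class A receptor of acetylated lipoproteins, had a level of 53.0 in the control against 66.8 in the knockout, 1.26-fold higher (1.19 to 1.33). Scarb1, the class B receptor that takes cholesteryl esters from high-density lipoprotein, had 67.1 in the control against 45.9 in the knockout, 1.46-fold lower (1.38 to 1.55). The class B pair thus stood in opposite order in the libraries: the ratio of Cd36 to Scarb1 reads was 0.462 in the control (0.432 to 0.494) and 4.01 in the knockout (3.81 to 4.22). Marco, a receptor of alveolar and splenic marginal zone macrophages, had no read in either library, so its level could be at most 0.0745 (control) and 0.0713 (knockout), taking 3 reads as the limit.

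Among the C-type lectins, the neighbouring genes Clec4d and Clec4e were both higher in the knockout. Their products bind mycobacterial cord factor and can pair at the cell surface. Clec4d was 4.55 in the control (183 reads) and 17.8 in the knockout (750 reads), 3.92-fold higher (3.33 to 4.63). Clec4e was 5.37 in the control (216 reads) and 14.7 in the knockout (619 reads), 2.74-fold higher (2.34 to 3.21). The Clec4d to Clec4e ratio of reads, uncorrected for length, was 0.847 (0.692 to 1.04) in the control, within counting error of equality. For the knockout library this read ratio was 1.21 (1.09 to 1.35). Per kilobase of transcript, Clec4d stood above Clec4e in both libraries, at ratios of 1.61 (control) and 2.31 (knockout). The fold of Clec4d was 1.43 times that of Clec4e (1.14 to 1.80). The call of Clec4e ended with a pseudocount of 5, at a log2 ratio of 0.93.

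Clec5a, which signals through Tyrobp and Hcst, was 25.05 in the control (1008 reads) and 63.1 in the knockout (2658 reads), 2.52-fold higher (2.34 to 2.71). Its log2 ratio of 1.30 was the same to 2 decimals as that of Clec4e, and the ratio of the folds of Clec4e and Clec5a was 1.09 (0.914 to 1.30). Clec5a lies on the same chromosome 6 as the Clec4 genes but far from them, from 40574894 to 40585821.

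The remaining lectins were scarce in both libraries. Clec7a, the receptor of fungal beta-glucan, had 32 reads in the control and 49 in the knockout, levels of 0.795 and 1.16. The interval of its fold, 1.46 (0.919 to 2.36), includes no difference. Clec4n, the mannan receptor next to Clec4d, went the other way from its neighbours, with 37 reads in the control and 14 in the knockout, levels of 0.919 and 0.333. Its level was 2.76-fold lower in the knockout (1.46 to 5.54), below the minimum for a call. Mrc1, the mannose receptor widely used as a macrophage marker, was without reads in the control library and had 5 reads in the knockout, a level of 0.119, at least 1.59-fold above the level that 3 reads would give in the control.

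**Figure D1:**
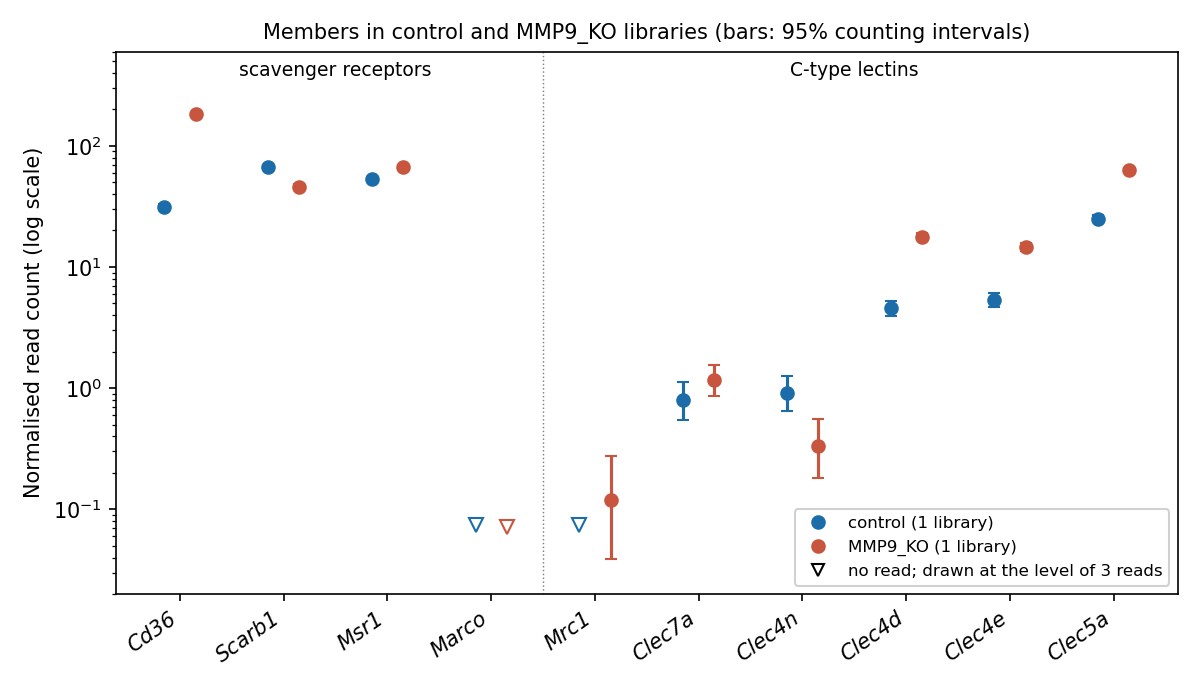
Normalised read count (log scale) of the 10 members in the control library (blue) and the MMP9_KO library (red); bars are 95% counting intervals and open triangles stand for no read, drawn at the level of 3 reads. Cd36 stands at 31.01 and 184 and Clec4d, Clec4e and Clec5a are each higher in the knockout, whereas Scarb1 and Clec4n are lower and Marco has no read.

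In all, 6 members were compared, and each of these had a level above 1 in both libraries. The higher ones numbered 4, the lower ones 0, and 2 stayed within 2-fold. Among all 11126 compared genes, 4.0% were higher and 9.58% lower by the same rule. The median log2 ratio was 1.30 over the 6 members and -0.16 over all compared genes. Relative to that median, the log2 ratio was 2.69 for Cd36, 1.92 for Clec4d, 1.46 for Clec4e, 1.46 for Clec5a, 0.49 for Msr1 and -0.38 for Scarb1. The level filter left out 4 members (Marco, Mrc1, Clec7a and Clec4n). Their log2 ratios ran from -0.53 (Clec4n) to 0.27 (Clec7a), and with no filter the median over all 10 was 0.30. The summed level of the 10 members went from 188 in the control library to 394 in the knockout library, and without Cd36 from 157 to 209.97.

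**Figure D2:**
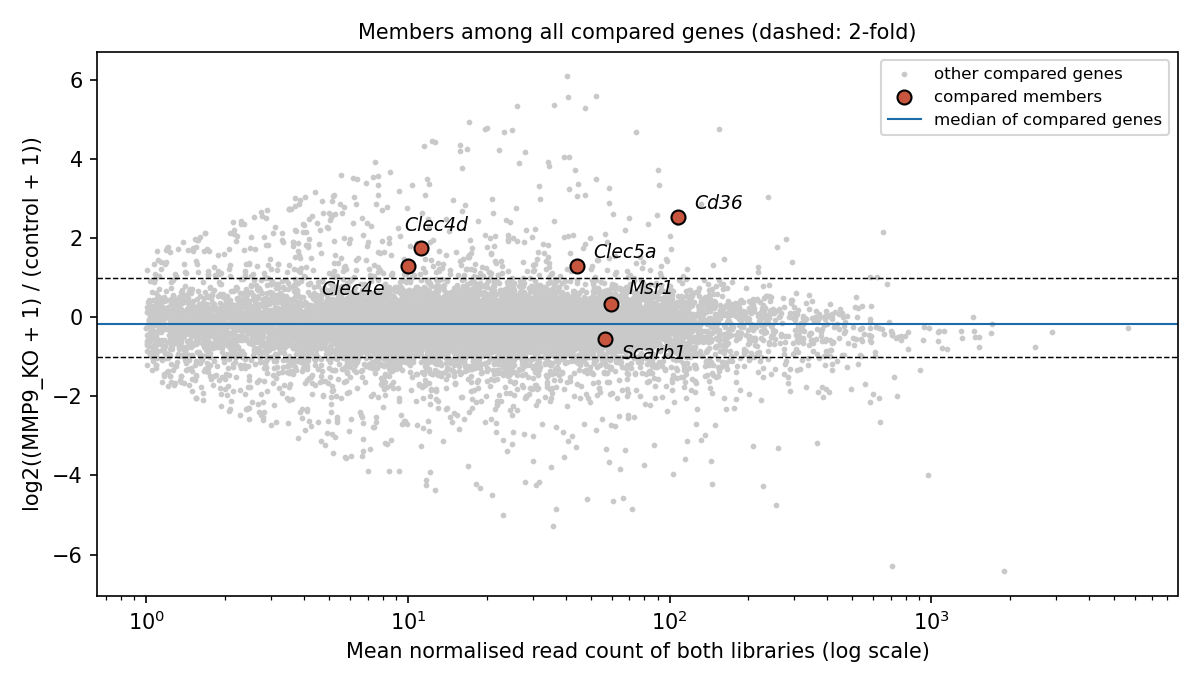
log2((MMP9_KO + 1) / (control + 1)) of each compared gene (grey) against its mean normalised read count (log scale), with the 6 compared members in red, dashed lines at 2-fold and a blue line at the median of -0.16. Cd36, Clec4d, Clec4e and Clec5a lie above the upper dashed line, and Msr1 and Scarb1 lie between the lines.

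Levels of different genes were compared per kilobase of the longest protein-coding transcript in GENCODE M21. On this scale the control order was Scarb1 (26.6 per kilobase), Msr1 (14.6), Cd36 (9.12), Clec5a (6.68), Clec4d (3.44) and Clec4e (2.13). In the knockout the order was Cd36 (54.1 per kilobase), Msr1 (18.4), Scarb1 (18.2), Clec5a (16.9), Clec4d (13.5) and Clec4e (5.84). Cd36 thus went from the third place to the first. It made up 14.3% of the members' summed level per kilobase in the control and 42.4% in the knockout, and Scarb1 made up 41.8% and 14.3%. Msr1 and Scarb1 were nearly equal in the knockout, and their order there rests on 1 choice of transcript for each length. Clec7a, Clec4n, Mrc1 and Marco lay under 1 per kilobase in both libraries.

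The Clec4 genes lie in 1 cluster on chromosome 6, and its genes went in opposite directions. The cluster, taken by position after the values were seen, spans 122921848 to 123289870 in GRCm38, 368 kb, and holds 9 genes. Of its 6 compared genes 3 were higher, 2 were lower and 1 was within 2-fold, against 4.0% higher and 9.58% lower over all compared genes. Clec4a2, which encodes the inhibitory receptor DCIR, stood at 56.6 in the control against 3.63 in the knockout, 15.6-fold lower (13.2 to 18.5). Clec4b1 was 5.71 and 0.451, 12.7-fold lower (7.93 to 21.4). At the far end of the cluster, Clec4a1 was 0.149 and 5.56, 37.3-fold higher (16.9 to 103), with only 6 reads in the control, so it passed the level filter through the knockout alone. Clec4a3, next to Clec4a1, was 1.04 and 1.14, and Clec4a4 and Clec4b2 were too low to compare. The summed level of the cluster came to 74.8 (control) and 43.8 (knockout). Clec4a2 shares 6.83% of its 50-base windows with other genes. Clec4b1 shares 8.68% and Clec4a4 15.7% of their windows with Clec4a2. The sources used here do not say how such reads were assigned. Clec4d and Clec4e share no 50-base window with another gene.

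**Figure D3:**
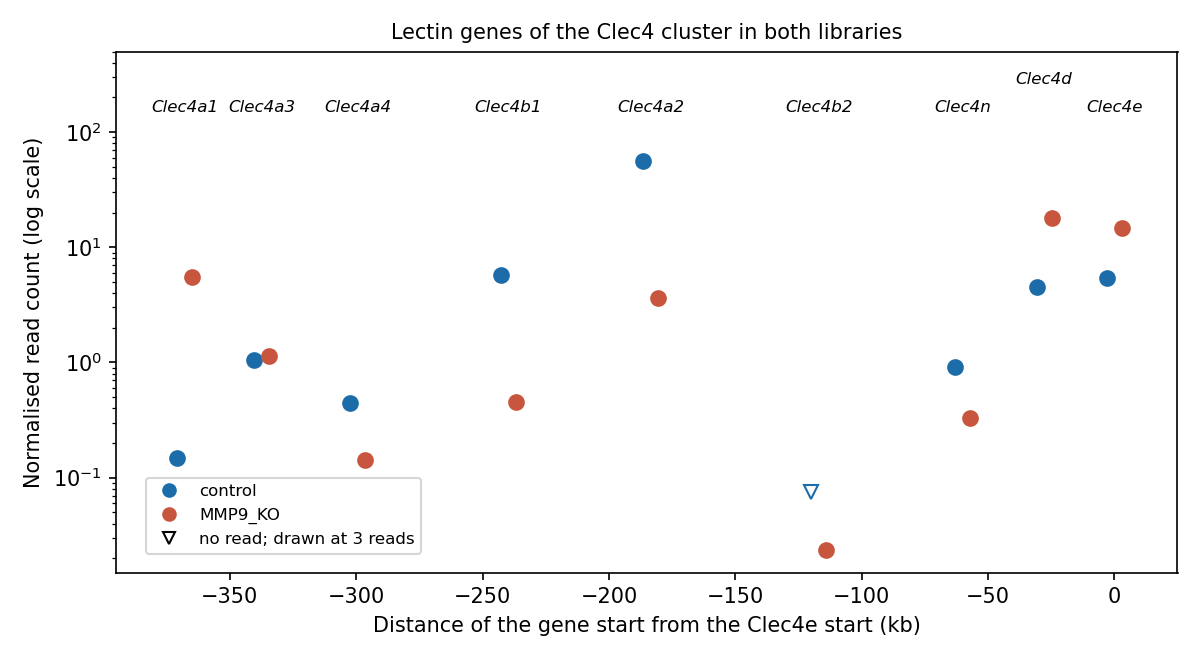
Normalised read count (log scale) of the 9 lectin genes of the Clec4 cluster in the control (blue) and the MMP9_KO (red), against the distance of each gene's start from the Clec4e start in kb; the open triangle stands for no read. Clec4a1, Clec4d and Clec4e are higher in the knockout, and Clec4a2, Clec4b1 and Clec4n are lower, so that the higher genes stand at both ends of the cluster and the lower ones between them.

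Other receptors of both families, in lists chosen with earlier results of these data known, went both ways. For their counts, the shares over all compared genes were 4.0% higher and 9.58% lower. Of 18 other scavenger receptors with an entry, 8 were compared, of which 2 were higher and 3 lower, with a median log2 ratio of -0.67. The higher ones were Stab1, a receptor of matrix and lipoprotein debris (1.84 and 10.1, 5.52-fold, 4.30 to 7.16), and Cxcl16, a membrane-bound chemokine that binds oxidised lipoprotein (1.07 and 6.56). The lower ones were Cd68, a lysosomal membrane protein (150.2 and 60.9, 2.47-fold), Colec12, a collectin (45.7 and 10.8, 4.25-fold), and Scarf1, an endocytic receptor (5.17 and 0.404), which passed the level filter through the control alone. Of 32 other C-type lectins 14 had no read in either library and 7 were compared, of which 1 was higher (Clec4a1) and 3 lower, with a median of -0.56. The third lower one was Clec2d (5.59 and 2.11, 2.64-fold), beside Clec4a2 and Clec4b1 (the latter compared through its control level alone). The call of Clec2d ended under each scaling of the knockout, at log2 ratios of -0.96 to -0.88. Clec12a, an inhibitory receptor close to Clec7a, was 82.4 and 55.5.

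Of 22 compared genes of the adaptors and the Syk and Card9 route behind the lectins, 0 were higher, 3 were lower and 19 were within 2-fold, with a median of 0.08. That is 13.6% past 2-fold, the same share as over all compared genes. The adaptors of the lectins differed: Fcer1g had 119 in the control against 166 in the knockout, 1.39-fold higher (1.34 to 1.45), whereas Tyrobp was 161 and 71.6, 2.25-fold lower (2.15 to 2.35). The call of Tyrobp ended under each scaling of the knockout and after centring by GC content, with log2 ratios from -0.98 to -0.85 in place of -1.16. Hcst was 2.16 and 1.52. In the knockout library the receptor gene Clec5a was thus higher and its adaptor gene Tyrobp lower than in the control. Card9, the scaffold that links Syk to NF-kB, was 31.5 and 33.6, and its partners Bcl10 (32.8 and 34.4) and Malt1 (25.8 and 24.6) were close to equal. The other lower genes were the kinase gene Src (213 and 16.9, 12.6-fold) and the ubiquitin ligase gene Cblb (18.7 and 6.22, 3.00-fold). Fyn, a kinase that acts behind Cd36, was 9.44 and 18.8, just short of a call, and under the scalings it was called higher (log2 ratio up to 1.19).

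Surface partners of these receptors went both ways. Of 15 compared, 4 were higher, 2 lower and 9 within 2-fold, against 4.0% higher and 9.58% lower over all compared genes. The median of these partners, -0.22, turned to 0.06 with both libraries scaled to equal sums. Cd36 acts together with Toll-like receptors, and Tlr2 was 50.5 and 118, 2.34-fold higher (2.22 to 2.46). Tlr6 was 2.96 and 6.44, a fold of 2.18 (1.75 to 2.72) that fell short of the call on the pseudocount scale, Tlr1 was 5.12 and 31.998, and Tlr4 was 13.96 and 10.8. Cd14 (15.5 and 166) and Itgam (38.7 and 86.3) were the other higher genes, and Itgav (639 and 173) and Cd9 (222 and 102) the lower ones. Under each scaling Cd9 stayed within 2-fold, at log2 ratios of -0.95 to -0.84, and Tlr6 was called higher, at 1.07 to 1.16.

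Of 17 compared genes that handle lipid after uptake, 0 were higher, 4 were lower and 13 were within 2-fold, with a median of -0.61, against 4.0% higher and 9.58% lower over all compared genes. Fabp4, which encodes a fatty acid binding protein, was too low to compare: 26 knockout reads against 0 in the control, at least 8.29-fold above the level of 3 reads. Pltp, which transfers phospholipid between lipoproteins, was 49.9 and 5.56, 8.97-fold lower (7.83 to 10.3). The cholesterol transporters of the lysosome Npc1 (81.6 and 40.2) and Npc2 (173 and 74.7) and the ester hydrolase gene Nceh1 (21.5 and 7.93) were the other lower ones. Npc1 lay at the threshold, with a log2 ratio of -1.003. Under each scaling and after centring by GC content Npc1 was within 2-fold, at -0.83 to -0.72. Npc2 was within 2-fold with equal sums (-0.92). Fabp5 was called higher under each scaling, at 1.10 to 1.21, and Soat1 with equal sums. The exporters Abca1 (3.45 and 3.14) and Abcg1 (65.4 and 35.1) and the lysosomal lipase gene Lipa (218 and 229) were within 2-fold.

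Among transcription factors linked to these receptors, 2 of 15 compared were higher and 2 were called lower. The shares over all compared genes were 4.0% higher and 9.58% lower. The median of these factors, -0.44, turned to 0.06 after centring in bins of GC content. Pparg, the nuclear receptor known to activate Cd36, had 15 reads in the control and 5 in the knockout. Nr1h3, the lipid-sensing receptor LXR alpha, was 1.71 and 0.499. Sfpi1, which encodes PU.1, was 98.4 and 47.5, 2.07-fold lower (1.96 to 2.19), and Mitf was 70.5 and 27.6. The call of Sfpi1 ended under each scaling and after centring by GC content, at log2 ratios of -0.86 to -0.52. The higher genes were Maf (0.149 and 12.2) and Irf8 (0.745 and 9.45), and both passed the level filter through the knockout alone. Among the 11 with a level of at least 1 in both libraries 0 were higher and 2 lower. Cebpb, known to act on Clec4e, was 6.73 and 8.12, 1.21-fold higher (1.03 to 1.42), and Nfe2l2, known to act on Marco and Cd36, was 69.9 and 71.5.

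**Figure D4:**
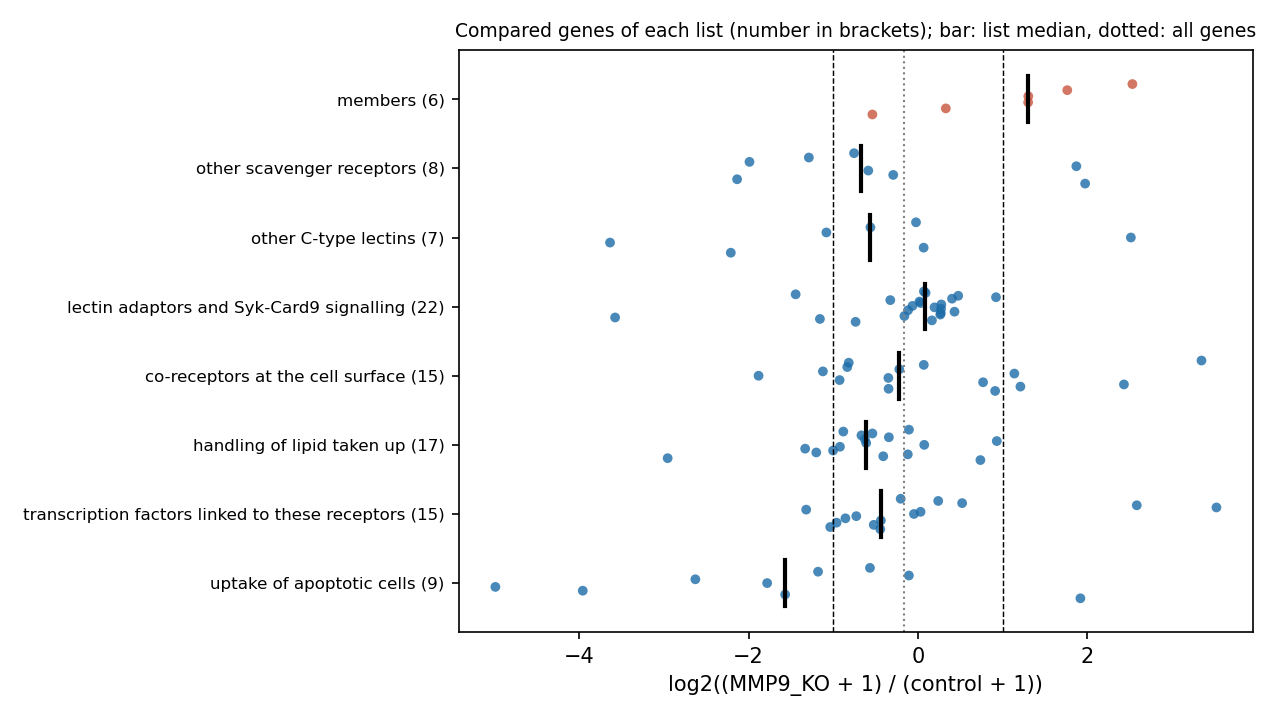
log2((MMP9_KO + 1) / (control + 1)) of each compared gene of the members (red) and of 7 lists of related genes (blue), with the number compared in brackets, black bars at list medians, dashed lines at 2-fold and a dotted line at the median of all compared genes. The median of the members is 1.30 and those of the other lists lie between -1.57 and 0.08.

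Markers of macrophages and osteoclasts also differed between the libraries. Mmp9, the targeted gene, was 139 and 3.87. Of the 11 other osteoclast markers 10 were lower in the knockout and 0 higher, with summed levels of 7691 and 1142. Among all compared genes 9.58% were lower and 4.0% higher. Car2, within 2-fold, went the other way, at 491 and 599, 1.22-fold higher (1.20 to 1.24). It was the largest part of the knockout sum. Of the 10 lower markers, 3 (Calcr, Itgb3 and Oscar) passed the level filter through the control alone. The call of Nfatc1 ended under each scaling and after centring by GC content, at log2 ratios of -0.92 to -0.81. Of 8 compared macrophage markers 6 were higher and 0 lower, with summed levels of 844 and 1319. The 2 within 2-fold, Csf1r (751 and 564), which made up most of the control sum, and Ccr2 (2.48 and 1.83), had lower levels in the knockout. Fcgr1 and Cx3cr1 passed through the knockout alone, and without them 4 of 6 were higher. Their part in the member levels was not tested, and in bulk RNA fewer cells of a type and less RNA per cell cannot be told apart. The markers of other cells that carry these receptors are given next, and their part in the member levels was not tested either. Platelets and fat cells express Cd36, and their markers summed to 1.14 and 0.689 and to 0.0248 and 0, with Gp9, Adipoq, Lep and Plin1 at 0 reads in both libraries. Neutrophils express Clec4d, Clec4e and Clec5a, and their 10 markers summed to 0.149 and 1.31, with Ly6g, S100a9, Elane, Mpo, Ngp, Ltf and Retnlg at 0. The remaining neutrophil markers had more reads in the knockout: Csf3r 6 in the control and 38 in the knockout, S100a8 0 and 13, and Camp 0 and 4. Dendritic cell markers summed to 16.8 and 9.79, most of it from Itgax and Zbtb46 in the control and Ccl22 in the knockout, with Flt3, Batf3 and Cd209a at 0. Monocyte markers summed to 9.84 and 8.67, T and NK cell markers to 1.39 and 7.72 (all of it from Lck), endothelial markers to 1.44 and 0.499, stromal markers to 0.398 and 0.428, B cell markers to 0.0994 and 0.333, erythroid markers to 0.124 and 0.143, and mast cell markers to 0.0994 and 0.0950.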

How the data were processed

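The authors deposited 1 table of log2 values, titled as normalised RPKM, with 1 control and 1 MMP9_KO column, which were matched to the samples by title. Reads were aligned with TopHat to mm9, per the submitters' processing notes; the sources used here do not give the counting program, annotation, strand or scaling. After conversion from log2, the deposited values lay within 0.05 of whole multiples of 1 step per library (0.0248 and 0.0238) for 99.98% and 99.99% of values with a read, whatever the length of the gene. They were taken as reads times 1 factor per library, and the lowest value, 0.9 of the step, was set to 0. A level of 0 allows up to 3 reads. With 1 library per group no test was possible. Intervals are exact 95% (Clopper-Pearson for folds and for ratios of reads, Poisson for levels, conditional odds ratio for ratios of folds), cover counting error only, and may be too narrow since reads were not collapsed by molecular identifiers. Calls use a pseudocount of 1, which understates differences of low genes, a mean of at least 1 and 2-fold. The named genes are the members, Mmp9 and, in each list of related genes, the first 3 genes and the 4 that differed most; the cluster genes and other single genes were named after their values were seen. Members and lists were chosen with earlier results of these data known. Of 268 list symbols 4 had no entry and were not used here; 1 further gene is not reported here. Positions, transcript lengths and GC content come from GENCODE M21 on GRCm38, another build than the alignment, by Ensembl identifier (23607 genes matched). Promoters are RefSeq's, from GRCm38.p6. The call rule was tested on simulated counts with counting error only and planted changes well past 2-fold in genes well above the level filter. That test does not cover changes near 2-fold, low genes or variation between cultures. Python 3.11.15, pandas 2.3.3 and scipy 1.17.1 were used.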

Additional observations from a re-analysis of the deposited data

How the results depend on the processing

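No paired analysis was possible because each group had a single library, so none could be left out either. Over 8 alternatives the number of members higher by 2-fold was 4 except with a pseudocount of 5, where it was 3 without Clec4e, and 0 were lower. The log2 ratio ranged from 2.39 to 2.82 for Cd36, 1.26 to 2.03 for Clec4d, 0.93 to 1.57 for Clec4e, 1.18 to 1.58 for Clec5a, 0.24 to 0.61 for Msr1 and -0.55 to -0.14 for Scarb1. Scalings of the knockout to a median ratio of 0, a trimmed mean or equal sums shifted log2 values by 0.18, 0.18 and 0.29. Over all genes, 255 were higher and 603 lower at a pseudocount of 5 (by construction it shrinks low genes), 691 and 684 with equal sums, and 671 lower after centring in 10 bins of GC content, known for 96.2% of compared genes; the cause of the last was not tested. Of 48 alternative member ratios 27 stayed within the counting interval, 21 left it and 0 called ones changed sign. Of the counts for the lists of related genes 103 stayed within 1.5 times and 25 did not.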

Other observations

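Receptors and bridging proteins for the uptake of apoptotic cells, a task that Cd36 and Stab1 share, were mostly lower in the knockout. Of 9 compared, 6 were lower, 1 was higher and 2 were within 2-fold, against 9.58% lower and 4.0% higher over all compared genes. The median log2 ratio was -1.57, against -0.16 over all compared genes. Over the alternatives other than no filter (-0.57) the median of the list lay between -1.67 and -1.17. The number of lower genes was 5 with a pseudocount of 5 and also with equal sums. With equal sums the call of Dock1 ended, at a log2 ratio of -0.94. The number of higher genes was 0 with a pseudocount of 5 and also with a mean of at least 5. Lgals3, which encodes galectin-3, had 194 in the control against 11.5 in the knockout, 16.8-fold lower (15.3 to 18.4). Gas6, a bridging ligand of the TAM receptors, was 21.2 and 2.59, and Mfge8, which bridges phosphatidylserine to integrins, was 182 and 60.6. Pros1, the other TAM ligand, was 0.944 and 6.34, 6.72-fold higher (4.77 to 9.70). Pros1 passed the level filter through the knockout alone and Itgb3, one of the lower genes, through the control alone, and without them 5 of 7 were lower and 0 higher. Itgb3 is also among the osteoclast markers given above. The TAM receptors themselves were scarce: Mertk had 0 reads in the control and 1 in the knockout, and Axl stood at 0.770 and 0.974.

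Markers of alternative activation, a state in which Mrc1 and Cd36 are often high, had summed levels of 78.2 (control) and 9.95 (knockout), with Tgm2 making up most of the control sum. Of 12 such genes 5 had no read in either library (Retnla, Chi3l3, Chi3l4, Ccl17 and Ear11), and Arg1 had 2 reads in the control and 3 in the knockout. Of the 3 compared, Tgm2 was 70.5 and 0.855, 82.5-fold lower (59.4 to 118) and compared through its control level alone, and Il4ra (3.23 and 5.49) and Egr2 (3.75 and 2.68) were within 2-fold.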
